A study of Mus musculus with 16 samples.

Results

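The levels of 8 mature miRNAs best known from brain were followed in 3T9 cells, an immortalised fibroblast line from mouse embryos. They were chosen by name from the 1167 mature miRNAs with an entry in the table: mmu-miR-7a-5p, mmu-miR-9-5p, mmu-miR-128-3p, mmu-miR-128-1-5p, mmu-miR-129-5p, mmu-miR-129-2-3p, mmu-miR-138-5p and mmu-miR-219a-1-3p (the species prefix is left out from here on). Earlier results of these data were known when the 8 were chosen. The tests and counts of calls below therefore describe them and are not independent support. Serum was withheld for 72 h to bring the cells to rest, after which complete medium (10% FBS, fetal bovine serum) was added, and the study asked how miRNAs are regulated when resting cells return to growth. Small RNA was sequenced after 0, 1, 2, 4, 6, 8, 10 and 12 h of serum, with 1 library at each time from each of 2 independent experiments. All groups are the same line with the same deprivation, so 0 h stands for serum-deprived cells and each later time for cells refed with serum. The line is a single established one, and no brain sample is part of the libraries analysed here.

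A miRNA is cut from the stem of a hairpin, and the 5p and 3p names stand for the hairpin arms from which the mature sequence comes. Usually 1 arm is kept in the silencing complex and the other is degraded, and the kept arm finds its target mRNAs mainly through its seed, bases 2 to 8. In brain, miR-9 is known for its part in neural progenitors, where it represses the nuclear receptor gene Nr2e1, and miR-128 for limiting neuronal excitability. miR-129-5p is enriched in neurons, miR-138 is known for controlling dendritic spine size through Lypla1, and miR-219 for promoting oligodendrocyte maturation. miR-7 is abundant in neurons and endocrine cells and is bound by the circular RNA Cdr1as.

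The mature sequences are shown because the seed sets which mRNAs each miRNA can pair with, and because they let the arms of a hairpin be compared. They come from RefSeq (GRCm38.p6), run 5′ to 3′ and have the seed in capitals.
miR-7a-5p: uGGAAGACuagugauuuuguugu
miR-9-5p: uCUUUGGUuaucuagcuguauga
miR-128-3p: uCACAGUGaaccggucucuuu
miR-128-1-5p: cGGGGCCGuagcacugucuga
miR-129-5p: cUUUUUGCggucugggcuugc
miR-129-2-3p: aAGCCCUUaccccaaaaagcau
miR-138-5p: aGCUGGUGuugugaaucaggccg
miR-219a-1-3p: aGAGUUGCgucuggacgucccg
All 8 were matched, and they carry 8 different seeds. The seed of miR-128-3p also stands 1 base further in, at bases 3 to 9, in miR-27a-3p and miR-27b-3p. Both arms of Mir128-1 and both arms of Mir129-2 are among the 8.

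The hairpins of the members whose arms or levels changed most are shown next, 5′ to 3′ in GRCm38.p6, with the annotated arms in capitals. Mir128-1 lies at chr1:128202361-128202430 on the plus strand, in an intron of R3hdm1. Mir129-2 lies at chr2:94241364-94241453 on the minus strand, in an intron of the long noncoding RNA gene Mir670hg. Mir7-1 lies at chr13:58392779-58392886 on the minus strand, in an intron of Hnrnpk, which encodes a widely expressed RNA-binding protein. Mir219a-1 lies at chr17:34024983-34025092 on the minus strand, in an exon of the long noncoding RNA gene Gm26940.
Mir128-1: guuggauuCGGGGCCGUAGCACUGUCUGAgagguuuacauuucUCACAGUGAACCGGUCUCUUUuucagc
Mir129-2: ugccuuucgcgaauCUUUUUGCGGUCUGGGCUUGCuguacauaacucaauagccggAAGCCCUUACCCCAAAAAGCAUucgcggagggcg
Mir7-1: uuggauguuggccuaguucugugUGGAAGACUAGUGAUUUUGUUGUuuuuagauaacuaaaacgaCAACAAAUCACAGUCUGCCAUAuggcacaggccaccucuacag
Mir219a-1: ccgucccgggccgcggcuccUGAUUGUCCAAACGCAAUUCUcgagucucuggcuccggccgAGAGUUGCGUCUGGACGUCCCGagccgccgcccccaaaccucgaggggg
miR-128-3p can also be cut from Mir128-2, in an intron of Arpp21, miR-129-5p from Mir129-1 and miR-7a-5p from Mir7-2. miR-128-1-5p and miR-129-2-3p are each named for 1 hairpin.

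Each library held 5852087 to 7783249 miRNA reads, and the 8 miRNAs took 0.0365% to 0.0827% of them, or 2449 to 6128 reads. Levels are given in CPM (TMM-scaled read counts relative to the library total), and a count of 0 would allow up to 0.385 to 0.513 CPM, taken as 3 reads of the total. Such limits cover counting error only. The 6 miRNAs listed as typical of fibroblasts and mesenchymal cells summed to 180549 to 269093 CPM, against 1.96 to 4.09 CPM for blood markers, 0 to 0.629 CPM for liver markers and 0 to 0.678 CPM for pluripotency markers. The epithelial list summed to 69.7 to 140 CPM, and miR-205-5p alone had 63.5 to 137 CPM. The rest of that list averaged 0.045 to 3.32 CPM each, and the muscle list summed to 0.979 to 2.67 CPM. In bulk RNA, fewer cells of a type and less RNA per cell cannot be told apart.

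The 8 miRNAs fell into a group of 3 above 40 CPM and a group of 5 below 30 CPM in every library. miR-128-3p had the highest mean over the 16 libraries, 254 CPM, with a range of 174 to 352 CPM, and stood at rank 97 of the 1167 miRNAs. miR-129-2-3p followed with 211 CPM (71.5 to 412) and miR-129-5p with 89.9 CPM (42.5 to 138). The ranges of these neighbours overlapped.

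miR-138-5p averaged 18.8 CPM (12.7 to 28.0), and its libraries did not overlap those of miR-129-5p. miR-128-1-5p averaged 9.51 CPM, miR-219a-1-3p 7.93 CPM, miR-7a-5p 6.79 CPM and miR-9-5p 6.50 CPM, at ranks 267 to 293. Their ranges overlapped each other, with 17 reads in the lowest library and 131 in the highest, so counting error weighs more on these 4 than on the abundant arms. Read counts of different miRNAs also depend on how well each sequence is captured in a library, which was not measured here.

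**Figure D1:**
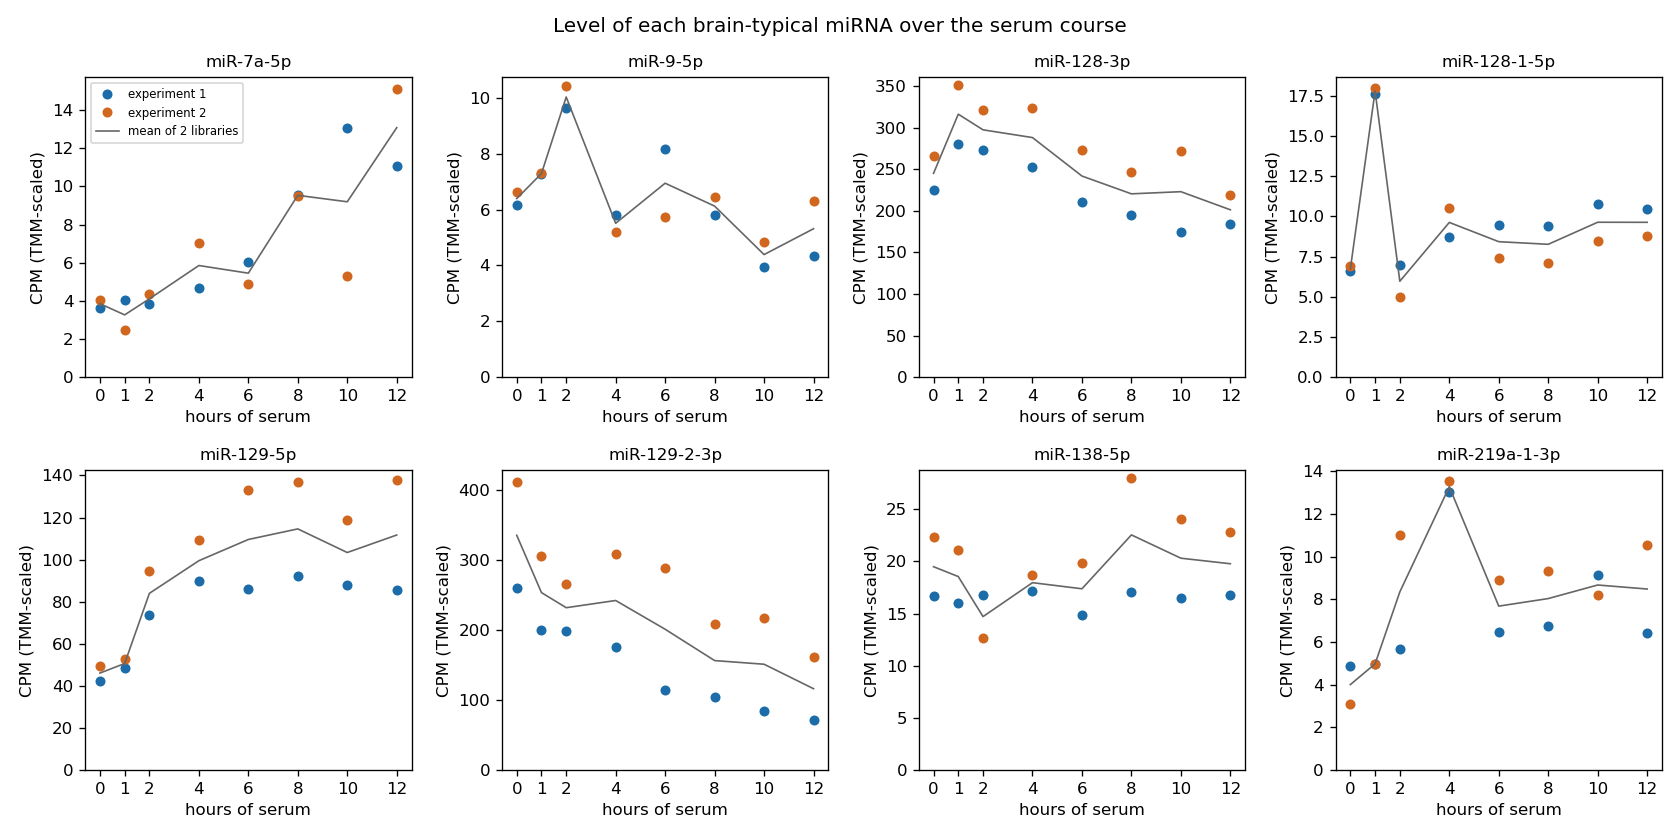
Level of each of the 8 miRNAs in CPM (vertical axis, its own scale per panel) against hours of serum (horizontal axis), with 1 point per library, the experiments marked apart and a line through the means. miR-128-1-5p is highest at 1 h in both experiments, at 17.6 and 18.0 CPM, and miR-7a-5p at 12 h is at 11.1 and 15.1 CPM, against 3.64 and 4.06 CPM at 0 h.

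Over the whole course, 4 of the 8 miRNAs changed (edgeR's quasi-likelihood test with Benjamini-Hochberg adjustment over the 449 miRNAs tested, of which 13.8% were called). They were miR-128-1-5p (adjusted p = 0.00487), miR-7a-5p (adjusted p = 0.0107), miR-129-5p (adjusted p = 0.019) and miR-219a-1-3p (adjusted p = 0.0451). In a linear trend over time, 5 of the 8 were called, against 25.2% of all tested miRNAs. miR-7a-5p and miR-129-5p rose, while miR-129-2-3p, miR-128-3p and miR-9-5p fell. With the experiment as a block, which removes the difference between the experiments, 7 of the 8 passed the test of any change, miR-138-5p being the exception, against 24.5% of all tested. Those added were miR-129-2-3p (adjusted p = 0.00026), miR-128-3p (adjusted p = 0.00237) and miR-9-5p (adjusted p = 0.0281). The median log2 change of the 8 at 12 h was 0.27, and that of all tested miRNAs was below 0.01.

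The earliest change was a pulse of miR-128-1-5p, the minor arm of Mir128-1. It had 17.6 and 18.0 CPM at 1 h, against 6.57 and 6.90 CPM at 0 h. In reads these were 131 and 123 at 1 h, against 47 and 51 at 0 h. Both libraries of 1 h stood above both libraries of every other time, among which the highest was 10.8 CPM.

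At 2 h miR-128-1-5p was back at 6.95 and 4.98 CPM, close to 0 h. Over 4, 6, 8, 10 and 12 h it then had 8.72, 9.46, 9.41, 10.8 and 10.5 CPM in experiment 1 and 10.5, 7.40, 7.12, 8.49 and 8.81 CPM in experiment 2. All libraries from 4 h on were thus above both libraries of 0 h, but the 12 h difference of 0.52 ± 0.24 on the log2 scale (SE) did not pass the test (adjusted p = 0.184, edgeR).

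The log2 change at 1 h was 1.40 with an SE of 0.23 (edgeR, adjusted p = 0.0134), and it was 1 of only 2 calls among all miRNAs at that time, or 0.445% of those tested. The fall at 2 h relative to 1 h was -1.57 ± 0.23 (adjusted p = 0.0012, edgeR), where 2% of all tested miRNAs were called. This contrast was chosen for the course of miR-128-1-5p with earlier results known, so its test is not independent support. Leaving out either library of 0 h or either library of 1 h left the rise at 1.40 to 1.44, with adjusted p-values between 0.0689 and 0.197. The fall between 1 and 2 h passed with every library left out in turn, at -1.74 to -1.36.

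The pulse was present in each of the 3 most frequent kinds of read of miR-128-1-5p. Reads equal to the reference numbered 60 and 41 at 1 h, against 21 and 15 at 0 h. Reads extended at the 3' end by bases that match the hairpin numbered 42 and 68 at 1 h, against 17 and 31 at 0 h. Reads with other bases added at the 3' end numbered 24 and 11 at 1 h, against 7 and 2 at 0 h. Trimmed reads were few, with 5 and 3 at 1 h, against 2 and 3 at 0 h. With reads equal to the reference alone, the rise was 1.46 and did not pass the test (adjusted p = 0.203, edgeR), nor did the fall at 2 h, -1.45 (adjusted p = 0.0848).

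miR-128-3p, the major arm of the same hairpin and the one that acts in neurons, did not show a pulse of that size. It had 281 and 352 CPM at 1 h, against 225 and 265 CPM at 0 h, higher at 1 h in both experiments. The change was 0.37 ± 0.23 on the log2 scale and did not pass the test (adjusted p = 0.994, edgeR). miR-128-1-5p had 0.0627 and 0.0512 reads per read of miR-128-3p at 1 h, against 0.0292 and 0.0260 at 0 h.

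The difference between the arms at 1 h was 1.03 ± 0.39 in log2 (± SE, adjusted p = 0.393, limma over 152 arm pairs). At 1 h 0% of the 152 pairs were called, and 12 had an unadjusted p under 0.05, so a difference between the arms of miR-128 was not shown. Since miR-128-3p is also made from Mir128-2, its level is not that of Mir128-1 alone. The other product of Mir128-2, miR-128-2-5p, had 1 read in all 16 libraries.

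Later in the course miR-128-3p declined. Over 2, 4, 6, 8, 10 and 12 h it had 273, 252, 210, 195, 174 and 184 CPM in experiment 1 and 322, 324, 274, 246, 272 and 219 CPM in experiment 2. Both series lay under their 1 h values and were lower at 12 h than at 0 h. The slope was -0.045 ± 0.014 log2 per hour (± SE, adjusted p = 0.023, edgeR). It missed the threshold without experiment 1 at 10 h, experiment 1 at 12 h, experiment 2 at 1 h or experiment 2 at 4 h, with slopes of -0.040 to -0.039 and adjusted p-values of 0.0568 to 0.0864. Within the experiments the slope was -0.049 (adjusted p = 0.0122) in experiment 1 and -0.039 (adjusted p = 0.114) in experiment 2. No single time was called against 0 h.

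miR-7a-5p rose late. In experiment 1 it had 3.64, 4.03, 3.83, 4.68, 6.02, 9.57, 13.1 and 11.1 CPM at 0, 1, 2, 4, 6, 8, 10 and 12 h. In experiment 2 it had 4.06, 2.49, 4.38, 7.02, 4.88, 9.49, 5.30 and 15.1 CPM. Both experiments stayed under 5 CPM to 2 h and were above 9 CPM at 8 h and 12 h, but at 10 h they lay apart.

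The 12 h level was 13.1 ± 2.85 CPM, against 3.85 ± 0.30 CPM at 0 h (SD, n = 2 each), or 74 and 96 reads against 26 and 30. The rise was 1.76 ± 0.37 in log2 (± SE, adjusted p = 0.0044, edgeR), and passed the test with every library left out in turn, at 1.55 to 1.99. At 12 h 2 of the 8 miRNAs were called, miR-7a-5p and miR-129-5p, against 14.3% of all tested.

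At 8 h the rise of miR-7a-5p was 1.30 ± 0.38 (adjusted p = 0.0456) and at 10 h it was 1.24 ± 0.38 (adjusted p = 0.0476, edgeR), both near the threshold. Among all tested miRNAs 9.58% were called at 8 h and 11.8% at 10 h. The 8 h call was lost without any 1 of 10 libraries, both of 0, 2, 6, 8 and 12 h, with values of 1.26 to 1.39. The 10 h call was lost without any 1 of 7 libraries, both of 0 h and 2 h and experiment 1 at 6, 8 and 10 h. Without experiment 1 at 10 h, the 10 h difference was 0.49 (adjusted p = 0.424). With library totals in place of TMM, the median log2 change of all tested miRNAs was -0.15, -0.16 and -0.15 at 8, 10 and 12 h, against -0.02, -0.03 and 0.005 with TMM. The change of miR-7a-5p was then 1.17 at 8 h and 1.10 at 10 h and was not called (adjusted p = 0.0561 and 0.0697), while the 12 h rise of 1.60 was.

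The slope of miR-7a-5p over the course was 0.157 ± 0.021 log2 per hour (± SE, adjusted p = 1.64e-05, edgeR). It was 0.168 in experiment 1 (adjusted p = 0.000243) and 0.149 in experiment 2 (adjusted p = 0.0244). No library left out ended that call, and the slope stayed between 0.148 and 0.171.

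The other arm of Mir7-1, miR-7a-1-3p, showed no change that passed a test. It averaged 7.06 CPM over the 16 libraries, and its 12 h change was 0.02 ± 0.25 in log2 (± SE, adjusted p = 0.96, edgeR).

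Reads of miR-7a-5p per read of miR-7a-1-3p were 0.531, 0.435, 0.750, 0.841, 0.913, 1.36, 1.54 and 1.57 over the times of experiment 1. In experiment 2 they were 0.577, 0.354, 0.509, 1.15, 0.744, 1.56, 0.625 and 2.13. The minor partner at 0 h was thus the 5p arm in both experiments, and at 12 h it was the 3p arm.

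The ratio was higher at 12 h than at 0 h by 1.71 ± 0.37 in log2 (± SE, adjusted p = 0.00888, limma over 152 pairs). It was 1.77 (adjusted p = 0.0582) without experiment 2 at 0 h and 1.49 (adjusted p = 0.068) without experiment 2 at 12 h. The trend of the ratio was 0.146 ± 0.027 log2 per hour (adjusted p = 0.000569) and held with every library left out. miR-7a-5p is also made from Mir7-2, and the second paralog, miR-7b-5p, was not analysed here.

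**Figure D2:**
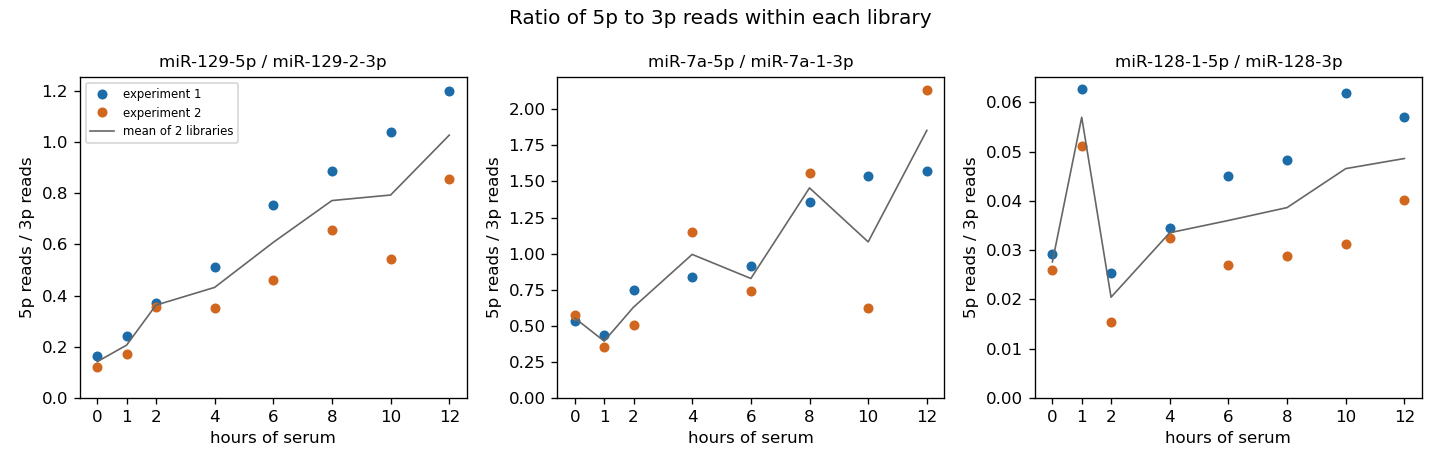
Reads of the 5p arm per read of the 3p arm (vertical axis, from 0, its own scale per panel) against hours of serum (horizontal axis), for 3 arm pairs, with 1 point per library and a line through the means. The ratio of miR-129-5p to miR-129-2-3p goes up in both experiments, to 1.20 and 0.855 at 12 h, against 0.164 and 0.121 at 0 h.

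The arms of miR-129 moved in opposite directions. miR-129-5p, the arm known to regulate potassium channel mRNA in neurons, had 42.5, 48.4, 73.5, 89.8, 86.0, 92.2, 88.0 and 85.7 CPM over the times of experiment 1. In experiment 2 it had 49.7, 52.9, 94.5, 109, 133, 137, 119 and 138 CPM. Each library from 2 h on was above all 4 libraries of 0 h and 1 h.

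miR-129-5p rose by 1.11 ± 0.28 at 4 h (adjusted p = 0.0294), 1.25 ± 0.28 at 6 h (adjusted p = 0.0143), 1.31 ± 0.28 at 8 h (adjusted p = 0.0084), 1.17 ± 0.28 at 10 h (adjusted p = 0.0143) and 1.28 ± 0.28 at 12 h (adjusted p = 0.00669), on the log2 scale with SE (edgeR). At 4 h 2 of the 8 miRNAs were called, against 7.57% of all tested, and at 6 h miR-129-5p was the only one, against 7.8%. At 2 h none of the 8 was called, against 2.45% of all tested, although 2 h separated the libraries of miR-129-5p. Its change there was 0.86 ± 0.28 (adjusted p = 0.168), and 0.86 with the experiment as a block (adjusted p = 0.00176).

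Several of these calls rest on single libraries. Without experiment 1 at 0 h all 5 were lost (1.03 to 1.24, adjusted p = 0.0787 to 0.184), and without experiment 2 at 0 h those at 4, 6 and 10 h were (1.26 to 1.38, adjusted p = 0.0676 to 0.116). Without experiment 2 of the time itself the changes at 4, 6, 8, 10 and 12 h were 0.98, 0.93, 1.03, 0.98 and 0.93 and not called (adjusted p = 0.0924 to 0.230), and without experiment 1 at 4 h the 4 h change was 1.25 (adjusted p = 0.0535). The test of any change was also lost without either library of 0 h or of 1 h (adjusted p = 0.0616 to 0.0959). The slope of 0.094 ± 0.023 log2 per hour (adjusted p = 0.0053) was called with every library left out, and within each experiment (0.075, adjusted p = 0.0405, and 0.109, adjusted p = 0.0324).

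miR-129-2-3p, the opposite arm of Mir129-2, went down. In experiment 1 it had 260, 201, 199, 176, 114, 104, 84.5 and 71.5 CPM over the 8 times. In experiment 2 it had 412, 307, 266, 309, 289, 209, 218 and 161 CPM. The fall was seen in each experiment, but experiment 2 was higher at 8 of 8 times, by 1.34 to 2.58 times, so the groups of 0 h and 12 h were each widely spread.

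Its 12 h change was -1.53 ± 0.55 in log2 (± SE, adjusted p = 0.0831, edgeR), and -1.60 with the experiment as a block (adjusted p = 2.39e-05). With that block it was also lower at 6 h (-0.84, adjusted p = 0.00822), 8 h (-1.15, adjusted p = 0.000741) and 10 h (-1.25, adjusted p = 0.00031), none of which was called without it (adjusted p = 0.267 at 8 h and 0.206 at 10 h). The slope was -0.110 ± 0.029 log2 per hour (adjusted p = 0.00929). It was -0.150 in experiment 1 (adjusted p = 6.03e-06) and -0.086 in experiment 2 (adjusted p = 0.00396).

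The ratio of the arms compares them within each library. Reads of miR-129-5p per read of miR-129-2-3p were 0.164, 0.241, 0.370, 0.511, 0.755, 0.887, 1.04 and 1.20 in experiment 1. In experiment 2 they were 0.121, 0.172, 0.356, 0.353, 0.461, 0.655, 0.545 and 0.855. The 3p arm was the more abundant in every library up to 8 h. The 5p arm was the more abundant in experiment 1 at 10 h and 12 h, and in no library of experiment 2. The ratio was higher in experiment 1 at every time, and went up in both.

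At 12 h the log2 ratio was higher than at 0 h by 2.85 ± 0.37 (SE; adjusted p = 0.000271, limma), and at 8 h by 2.44 ± 0.37 (adjusted p = 0.00119). Among the 152 arm pairs 17.1% were called at 12 h, with 3 of the 4 member pairs, and 11.2% at 8 h, with 2 of the 4. The trend of 0.214 ± 0.026 log2 per hour (adjusted p = 1.41e-05) stood at rank 3 by p among the pairs, of which 21.1% were called, again with 3 of the 4 member pairs. Neither the 12 h difference, at 2.60 to 3.09, nor the trend, at 0.196 to 0.229, lost its call with any library left out.

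miR-129-5p can come from both Mir129-1 and Mir129-2, and the reads do not tell these apart. The 3p arm of the first, miR-129-1-3p, had only 2 to 12 reads per library. Its log2 change of -1.10 ± 0.74 (SE) at 12 h did not pass the test (adjusted p = 0.387, edgeR). The arm ratio of that pair was higher at 12 h by 2.15 ± 0.57 (adjusted p = 0.0205, limma), and that call was lost without experiment 2 at 0 h (1.69, adjusted p = 0.150) or at 12 h (1.66, adjusted p = 0.160). Its trend of 0.124 log2 per hour (adjusted p = 0.0327) was lost without any 1 of 7 libraries, both of 0 h and 1 h, experiment 1 at 10 h and experiment 2 at 2 h and 12 h (0.097 to 0.124, adjusted p = 0.0527 to 0.0890).

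miR-219a-1-3p, the 3p arm of a hairpin whose 5p arm is the one known from oligodendrocytes, was highest at 4 h. In experiment 1 it had 4.90, 4.97, 5.67, 13.0, 6.45, 6.75, 9.16 and 6.43 CPM over the 8 times. In experiment 2 it had 3.11, 4.98, 11.0, 13.5, 8.91, 9.32, 8.18 and 10.5 CPM. The 2 libraries of 4 h were above all others.

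The 4 h level was 13.3 ± 0.36 CPM, against 4.00 ± 1.26 CPM at 0 h (SD, n = 2 each), or 103 and 104 reads against 35 and 23. The rise was 1.73 ± 0.34 in log2 (± SE, adjusted p = 0.0047, edgeR), and without experiment 2 at 0 h it was 1.47 (adjusted p = 0.097). At 8, 10 and 12 h the log2 differences from 0 h were 1.00, 1.11 and 1.08, which did not pass (adjusted p = 0.108, 0.0579 and 0.0572). With no filter on low counts they passed (adjusted p = 0.0466, 0.00864 and 0.0163), which is weak support. That fit also took miR-129-2-3p at 12 h from adjusted p = 0.0831 to 7.75e-11 (edgeR), while its log2 change went from -1.53 to -1.52. With the experiment as a block the differences of miR-219a-1-3p at 8, 10 and 12 h passed as well (adjusted p = 0.047, 0.0224 and 0.0255). Those at 10 and 12 h also passed without either library of 2 h or experiment 1 at 12 h, and the one at 10 h without experiment 2 at 12 h. The test of any change lay close to the threshold, and 11 of the 16 single libraries ended it when left out (adjusted p = 0.0506 to 0.154).

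Those 11 were both libraries of 0, 1, 4 and 10 h and experiment 2 at 6, 8 and 12 h. The 5p arm, miR-219a-5p, had 0 to 3 reads per library, at or below the limit that a count of 0 allows. The arm pair was therefore not tested. A second miRNA gene, Mir219c, is annotated on the opposite strand of Mir219a-1, and its arms had 0 to 8 reads per library.

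miR-9-5p had the lowest mean of the 8. In experiment 1 it had 6.16, 7.26, 9.65, 5.81, 8.17, 5.80, 3.92 and 4.34 CPM over the 8 times, and in experiment 2 6.63, 7.32, 10.4, 5.20, 5.72, 6.44, 4.85 and 6.29 CPM. Both experiments were highest at 2 h and lowest at 10 h. The 2 h change was 0.65 ± 0.23 in log2 (± SE, adjusted p = 0.196, edgeR).

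The decline of miR-9-5p, -0.055 ± 0.019 log2 per hour, was only just called (adjusted p = 0.0466, edgeR). It was lost without any 1 of 12 libraries, all but both of 0 h, experiment 1 at 6 h and experiment 2 at 12 h (-0.056 to -0.044, adjusted p = 0.0595 to 0.136). Within experiments it was -0.067 (adjusted p = 0.117) and -0.042 (adjusted p = 0.386). The test of any change gave adjusted p = 0.0554, and 0.0281 with the experiment as a block.

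miR-138-5p showed no change that passed a test. It had 14.9 to 17.2 CPM over all times of experiment 1 and 12.7 to 28.0 CPM in experiment 2. The 12 h difference was 0.02 ± 0.29 on the log2 scale (SE), and -0.14 with library totals in place of TMM. The test of any change gave adjusted p = 0.896 (edgeR).

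**Figure D3:**
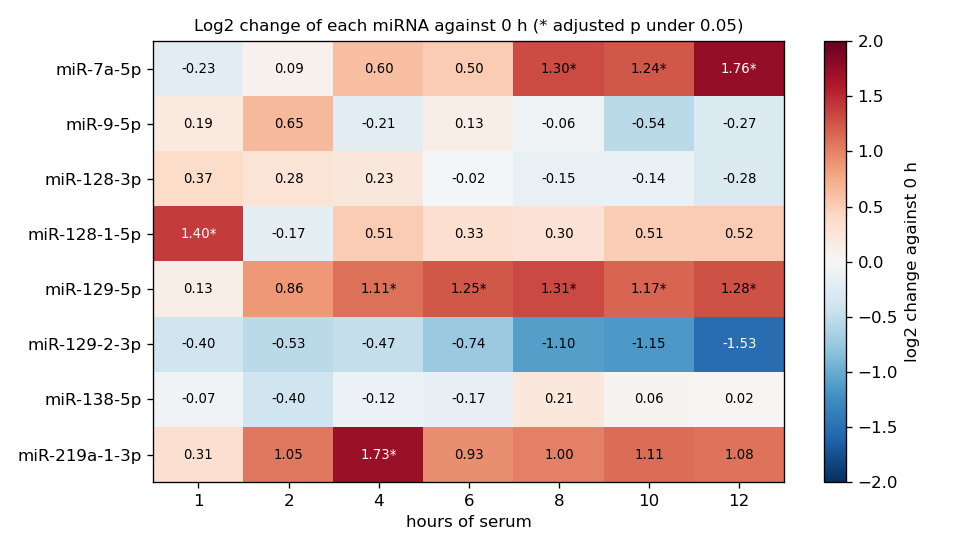
Log2 change of each of the 8 miRNAs (rows) at each later time against 0 h (columns), printed in the cells and coloured by sign and size, with a star where the adjusted p was under 0.05. miR-129-5p (1.28) and miR-7a-5p (1.76) are higher at 12 h, miR-129-2-3p is at -1.53, and miR-128-1-5p is at 1.40 at 1 h.

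The miRNAs also differed in the ends of their reads, which the table counts as classes. What each class means was read from its name alone. Most reads of miR-129-2-3p (92.0%), miR-138-5p (78.4%), miR-219a-1-3p (75.6%) and miR-129-5p (67.3%) were counted as equal to the reference. Of the reads of miR-7a-5p only 10.2% were, and 84.0% were counted as running on at the 3' end with bases that match the hairpin. Whether the reference behind these classes is the same as the sequences printed above was not checked. Since the extension is at the 3' end, extended reads keep the same seed. In Mir7-1 the arm is followed by a run of u, so an added U and a U of the hairpin cannot be told apart there.

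The rise of miR-7a-5p was mostly in these longer reads, with 63 and 79 at 12 h, against 17 and 21 at 0 h. Its reference reads numbered 6 and 11 at 12 h, against 8 and 5 at 0 h, and were too few to be tested. Counting reads equal to the reference alone would thus have left this miRNA out.

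miR-9-5p was split between reference reads (45.7%) and trimmed reads (48.9%), and the class name does not say which end was trimmed. miR-128-3p had 46.4% reference reads and 33.1% with 3' bases that do not match the hairpin. Among the latter, additions classed as mixed made up 17.4% of all its reads and additions of A 15.0%. miR-128-1-5p had 37.5% reference reads and 45.0% with hairpin-matching 3' extensions. The share extended by matching bases was lower in experiment 1 (32.1% to 42.0%) than in experiment 2 (43.2% to 64.3%) at every time.

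In miR-129-5p the share of reads with non-matching 3' bases moved with time. It was 27.0%, 25.0%, 18.5%, 18.6%, 20.7%, 25.7%, 28.4% and 30.9% over the times of experiment 1. In experiment 2 it was 24.8%, 23.0%, 17.6%, 17.3%, 20.5%, 23.1%, 25.6% and 24.4%. Both experiments were lowest at 2 and 4 h, the times at which the level of miR-129-5p was first higher. These shares are described without a test.

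**Figure D4:**
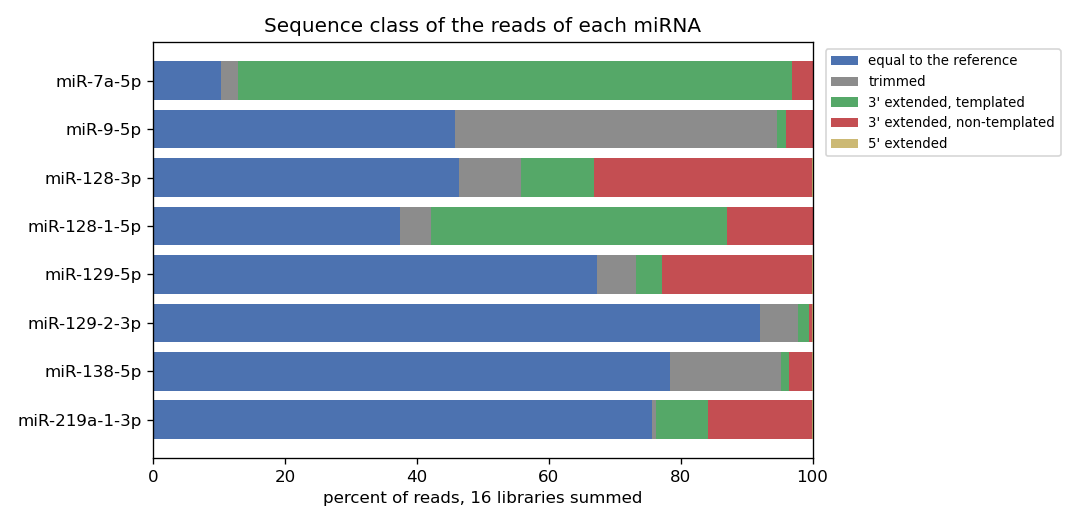
Share of all reads of each miRNA (bars, percent, over the 16 libraries) by class of read end. miR-129-2-3p is 92.0% reference reads, while miR-7a-5p is 84.0% reads extended at the 3' end with bases that match its hairpin.

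The other arms and close paralogs of the 8 were scarce, apart from miR-7a-1-3p (7.06 CPM on average). Of 15 named, 11 had an entry and 2 passed the filter on low counts (miR-7a-1-3p and miR-129-1-3p). Neither was called in any test of its own level, while the arm ratios that hold them were called as given above. miR-9-3p had 0 to 5 reads per library.

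A list of 30 other miRNAs typical of brain was also scarce apart from a few. Of the 18 with an entry, 8 passed the filter, and the list summed to 290 to 372 CPM per library. The 4 most abundant were miR-218-5p (211 CPM on average), miR-132-3p (36.6), miR-218-1-3p (26.9) and miR-344-3p (19.3). The remaining 12 of the 30, among them the neuronal miR-124-3p, were not analysed here.

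At 12 h 1 of the 8 tested rose, miR-212-3p (1.39 on the log2 scale, adjusted p = 0.00365, edgeR), and none fell, while 37 of all 449 tested rose. In the trend, in which 54 of the 449 rose, miR-212-3p and miR-132-3p, which share a cluster and are induced by CREB in neurons, rose, with a slope of 0.056 log2 per hour for miR-132-3p (adjusted p = 0.0404). The median 12 h change of the 8 tested was 0.17.

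The tested miRNAs whose levels ran most like those of miR-7a-5p over the 16 libraries, by Pearson's r of log2(CPM + 0.5), were miR-702-3p (r = 0.866), miR-222-5p (r = 0.864) and miR-6539 (r = 0.842). Their 12 h log2 changes were 0.98, 1.63 and 1.96, given without a test since the miRNAs were picked for this likeness. For miR-128-1-5p the closest were miR-374c-3p (r = 0.599), miR-344c-3p (r = 0.567) and miR-6540-5p (r = 0.553). Their 1 h log2 changes were 0.23, 0.78 and 0.35, against 1.40 for miR-128-1-5p. The points share their libraries and experiments, and the r values are a description.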

How the data were processed

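The table deposited by the authors gives raw counts of reads for each miRNA and read class, per the file headers, with 1 column per library and no sign of normalisation in the values. The submitters' processing notes name CASAVA 1.8.0. For the aligner, the genome build and the handling of reads that fit several miRNAs, nothing is stated in the sources used here. Libraries came from 1000 ng of total RNA (TruSeq small RNA kit), per the labels' protocols.

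Of 6511 entries, 1 identical duplicate was dropped. Reference, trimmed, 3' extended and 5' extended reads were summed for each of 1167 mature miRNAs, without the entries for added bases, which repeat those reads. Tests across miRNAs used edgeR 4.0.16 (R 4.3.3, quasi-likelihood F-test, TMM scaling, filterByExpr with 10 as the minimum count, Benjamini-Hochberg adjustment at 0.05) in 1 fit of all 16 libraries. The filter kept 449 miRNAs, all 8 described here among them, and left out 718. An SE is the log2 change divided by the root of F. Arm pairs were tested with limma 3.58.1 on log2 ratios, with 0.5 reads added to each arm. "Rose", "fell" and "called" mean an adjusted p under 0.05. The scripts were tested on simulated data.

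Each experiment was sequenced in its own run, so experiment and run cannot be told apart. Its number pairs libraries across times: the deviations from time means correlated above 0.1 in 28 of 28 pairs of times (0.134 to 0.602). The main fit has no block for it.

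Alternatives were DESeq2 1.42.0 size factors, library totals, other filters, DESeq2 and limma-voom tests, the block, reference reads only, other arm-ratio settings, and leaving out each library. The trend within each run was added after seeing the data. The rule for named miRNAs was all 8, their other arms and paralogs, the 4 most abundant of the brain list, and the 3 closest profiles of 2 members. The members, the lists and the contrast of 2 h with 1 h were chosen with earlier results of these data known.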

Additional observations from a re-analysis of the deposited data

How the results depend on the processing

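Among the 8 miRNAs and their arm pairs, 1204 values under an alternative kept direction and side of the threshold, 97 lost a call, 36 gained one and 12 turned direction. Of the 8, the number called went to 1 at 8 h and 1 at 10 h with library totals and with limma-voom. With no low-count filter it was 2 at 2 h, 2 at 6 h, 4 at 8, 10 and 12 h, 2 at 2 h against 1 h and 3 in the trend. With a mean of at least 10 CPM, which leaves out the 4 rarest, it was 0 at 1 h, 4 h and 2 h against 1 h, 1 for any change and at 8, 10 and 12 h, and 3 in the trend. With reference reads only, where miR-7a-5p was not tested, it was 0 at 1 h and 2 h against 1 h, 1 for any change and at 8 and 10 h, and 3 in the trend, and miR-128-1-5p at 1 h was 1.46. With the replicate block it was 7 for any change, against 24.5% of all tested. At single times it was then 1 at 2 h, 2 at 6 h, 4 at 8, 10 and 12 h and 2 at 2 h against 1 h. Calls over all tested miRNAs also moved with these settings, from 46 to 108 at 12 h (64 in the main test). More calls under a setting are therefore not by themselves a result about the 8. The block also brought in the arm difference of miR-128 at 12 h (0.79, adjusted p = 0.0348, limma), miR-129-5p at 2 h against 1 h (0.71, adjusted p = 0.00713, edgeR) and any change of miR-128-3p, and changed no other call than these and those given beside the results. Leaving out single libraries gave 0 to 1 called at 1, 2 and 6 h, 0 to 2 at 4 and 8 h, 0 to 3 at 10 h, 1 to 3 at 12 h, 2 to 5 for any change and 3 to 5 in the trend, and 1.40 to 1.44 for miR-128-1-5p at 1 h.

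Values that turned direction were all small and uncalled. Where a range is given below, it runs over all left-out libraries, of which only some turned the direction. For miR-138-5p they were -0.14 at 12 h with library totals, -0.18 to 0.25 at 12 h without single libraries, 0.028 at 1 h with reference reads only, and -0.27 to 0.16 at 1 h without single libraries. For miR-128-1-5p the slope was 0.0034 with limma-voom, 0.0042 in experiment 1 alone, and -0.025 to 0.0096 without single libraries. miR-9-5p was at -0.21 at 1 h with reference reads only, and miR-7a-5p ran from -0.60 to 0.085 at 1 h without single libraries. The cause was not tested.

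Over all tested miRNAs the calls ranged over the alternatives other than left-out libraries from 0 to 5 at 1 h (2 in the main test), 7 to 31 at 2 h (11), 15 to 66 at 4 h (34), 20 to 77 at 6 h (35), 30 to 81 at 8 h (43), 43 to 84 at 10 h (53), 46 to 108 at 12 h (64), 4 to 18 at 2 h against 1 h (9), 39 to 110 for any change (62) and 91 to 148 in the trend (113). With 17 to 131 reads per library, miR-7a-5p, miR-9-5p, miR-128-1-5p and miR-219a-1-3p are limited by depth as well as by 2 libraries per time.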

Other observations

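A miRNA gene on the opposite strand of Mir129-2, Mir129b, gave reads whose arms followed those of miR-129. It was chosen after its values were seen. Its mature sequences are shown, with the 20 bases complementary to the opposite arm of Mir129-2 in capitals (RefSeq, GRCm38.p6, 5′ to 3′).
miR-129b-3p: CAAGCCCAGACCGCAAAAAGauu
miR-129b-5p: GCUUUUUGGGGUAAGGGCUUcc
miR-129b-3p lies opposite miR-129-5p, and had 9.57 and 17.8 CPM at 12 h, against 5.46 and 8.12 CPM at 0 h. miR-129b-5p lies opposite miR-129-2-3p, and had 7.03 and 8.49 CPM at 12 h, against 17.6 and 24.4 CPM at 0 h. Over the 16 libraries, Pearson's r of log2(CPM + 0.5) was 0.939 between miR-129b-3p and miR-129-5p and 0.918 between miR-129b-5p and miR-129-2-3p. Such values were not particular to this locus. With miR-129-5p, r was higher for miR-211-5p (0.951) and miR-149-5p (0.942), and with miR-129-2-3p it was 0.883 for let-7b-5p. Between miR-129-5p and miR-129-2-3p, which come from the same strand, r was -0.22. These r values share libraries and are a description. Experiment 2 was higher at 8 of 8 times for both arms of miR-129b, as it was for both arms of miR-129 and for miR-128-3p. Whether the table's counting used strand is not given in the sources used here, and its part in the likeness was not tested.

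Reads of miR-129-5p with an added C at the 3' end were nearly lacking in serum-deprived cells. At 2 h they numbered 20 of 518 and 23 of 626 reads, and at 12 h 13 of 573 and 17 of 876, against 1 of 304 and 1 of 367 at 0 h. At 1 h the experiments differed, with 12 of 360 and 2 of 361 reads. This was noticed after the values were seen and was not tested.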
